A study of Komagataella phaffii with 9 samples.

Results

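The strain without *CRA1*, named *Δcra1*, was compared with its control strain in the methylotrophic yeast *Komagataella phaffii*, to ask which transcripts other than those of glycolysis and thiamine synthesis change when this transcription factor is lost. The comparison used 6 of the 9 libraries of the series, 3 of the *Δcra1* strain and 3 of the control strain, and all 5342 of the 5344 counted sequences that remain after the resistance marker sequences Kanamycin and Zeocin are left out. Both strains derive from CBS 7435 and carry an eGFP reporter driven by the promoter of the glyceraldehyde-3-phosphate dehydrogenase gene. In the *Δcra1* strain *CRA1* had also been deleted with a split marker cassette. Cells were precultured in YP medium with Zeocin, moved to M2 medium with 5 g/L glucose in shake flasks, and sampled in exponential growth. A single transformant stood for each strain, so the 3 cultures of a strain hold no spread between transformants, and differences that came with the transformant, the marker or the growth of the strain cannot be told apart from the loss of *CRA1*.

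Cra1 belongs to the Gal4 family of fungal zinc cluster activators, which bind DNA as dimers. In *Saccharomyces cerevisiae* Gal4 itself switches on the genes of galactose use, whereas in several other yeasts its relatives act on glycolytic genes instead. On glucose, *K. phaffii* respires the sugar nearly completely and ferments little when oxygen is plentiful. The roles given below are those of the *S. cerevisiae* proteins of the same name, as the study's gene table assigns the names, unless stated otherwise.

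*CRA1* (PP7435_Chr1-1522) had 11, 11 and 11 estimated counts in the control libraries and 0, 0 and 0 in the *Δcra1* libraries, which matches the labels. Against a floor of 3 counts per library its level was at least 7.58-fold lower. The transcript of the eGFP reporter had 39, 26 and 45 counts in the control strain and 27, 14 and 13 in the *Δcra1* strain, and fell 4.19-fold (log2 fold change -2.07 ± 0.30 SE, adjusted p = 1.42e-06 in the quasi-likelihood test of edgeR after Benjamini-Hochberg adjustment). Of the sequences numbered within 3 of *CRA1* only PP7435_Chr1-1525, which was not called, and *RDH54*, a DNA repair ATPase whose identifier follows that of *CRA1*, had enough counts to be tested. *RDH54* had 675, 819 and 709 counts in the control strain and 667, 592 and 585 in the *Δcra1* strain, and fell by 1.31 on the log2 scale (SE 0.10, adjusted p = 2.95e-12).

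The libraries were shallow and their depth moved with the strain. Control libraries held 106328 to 108525 counts and *Δcra1* libraries 192023 to 222125, so that an equal count in both strains is a lower level in the *Δcra1* strain. Shares of the counts are unusual for a growing yeast, in which mRNAs of glycolysis and of ribosomal proteins are among the most abundant. The 14 listed genes of glycolysis and fermentation held 0.393% to 0.545% of the control libraries, and 18 listed cytosolic ribosomal proteins 0.342% to 0.444%, whereas *RPS26B* alone held 8.14% to 9.86%. Whether the strand of the reads was used in counting is not given in the sources used here, so reads from a gene and from a neighbour that overlaps it, on either strand, cannot be told apart, and every value below is of the counts assigned to the named gene. Counts were compared as shares of each library, so a change in the amount of mRNA per cell was not measured.

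Of the 5342 sequences 2390 had enough counts to be tested, and 516 of these, or 21.6%, were called at an adjusted p-value under 0.05 with a change of at least 2-fold. There were 312 calls (13.1% of the sequences tested) that were higher in the *Δcra1* strain and 204 (8.54%) that were lower. The median log2 fold change was 1.54 among the genes called higher, -1.37 among those called lower and 0.01 over all sequences tested. Other settings moved this balance, since the rises made up 60.5% of these calls but 72.8% (394 rises and 147 falls) with library totals as the only scaling, 69.4% and 70.2% with limma on log2 TPM values, and 48.3% (180 rises and 193 falls) in 1 fit of all 9 libraries. More than 4-fold changes were seen in 81 rises and 59 falls, and more than 8-fold changes in 34 rises and 18 falls. In 495 of the 516 called genes no library of one strain overlapped those of the other, while 48.3% of all sequences tested had libraries that did not overlap. The genes called higher took 2.35% to 2.55% of the counts of the control libraries and 8.75% to 9.85% of the *Δcra1* libraries. Those called lower took 19.3% to 21.4% and 7.98% to 8.79%. Rises came mostly from genes with low counts, with a median of 58.8 CPM (counts per 1000000, scaled by edgeR's TMM factors) in the control strain, and falls from genes with a median of 322, against 222 over all sequences tested. The filter asked for enough counts in as many libraries as a strain has. Genes low in the control strain could thus be tested through the deeper *Δcra1* libraries, where they were high. The low control level of the rises is therefore partly set by the filter.

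**Figure D1:**
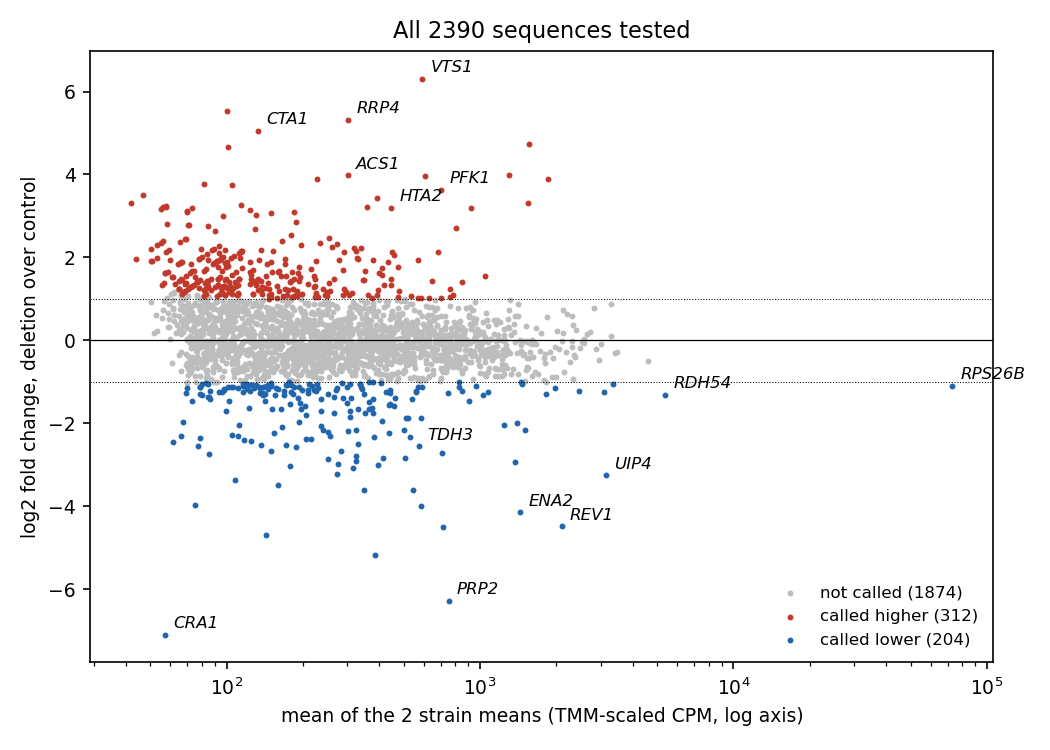
Change against level for the 2390 sequences tested, with the mean TMM-scaled CPM of both strains on a log axis across and the log2 fold change of the *Δcra1* strain over the control strain upwards. The 312 sequences called higher lie above the upper dotted line and mostly at the low end of the level axis, and the 204 called lower lie below the lower dotted line.

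Between the control and *Δcra1* libraries depth moved with the strain, so depth and strain cannot be told apart in the calls. The 3 libraries of the *CRA1* overexpression strain, which enter no test above, held 213647, 114593 and 139038 counts. The genes called higher in the *Δcra1* strain took 7.10%, 3.07% and 4.57% of these libraries, in the same order as their depth. *CRA1* itself had 810, 95 and 316 counts there, again in the same order, so that depth and the amount of *CRA1* cannot be told apart within that strain. In a fit of all 9 libraries with the log2 total count as a covariate, added after the values were seen and called the depth fit below, 42 of the 312 rises and 80 of the 204 falls were still called. Of the 312 rises 206 kept their sign, 99 turned it and 7 had too few counts to be tested there, and of the 204 falls 197 kept it and 7 turned it. Depth varied little within the control and within the *Δcra1* libraries, so this fit drew its depth slope mostly from the overexpression libraries. A call kept or lost in it therefore does not tell depth from the amount of *CRA1*. *THI4*, whose share of the overexpression libraries had the order of their depth, went from -1.55 to -3.43 on the log2 scale. The fall of such a gene tended to be kept, which is not separate support. Whether depth has a part in the rises was not tested further. The calls that the depth fit kept are given with the groups of genes below. *CRA1* and eGFP were still called lower in it, while *RDH54* was not called (log2 fold change -0.27, adjusted p = 0.497).

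**Figure D2:**
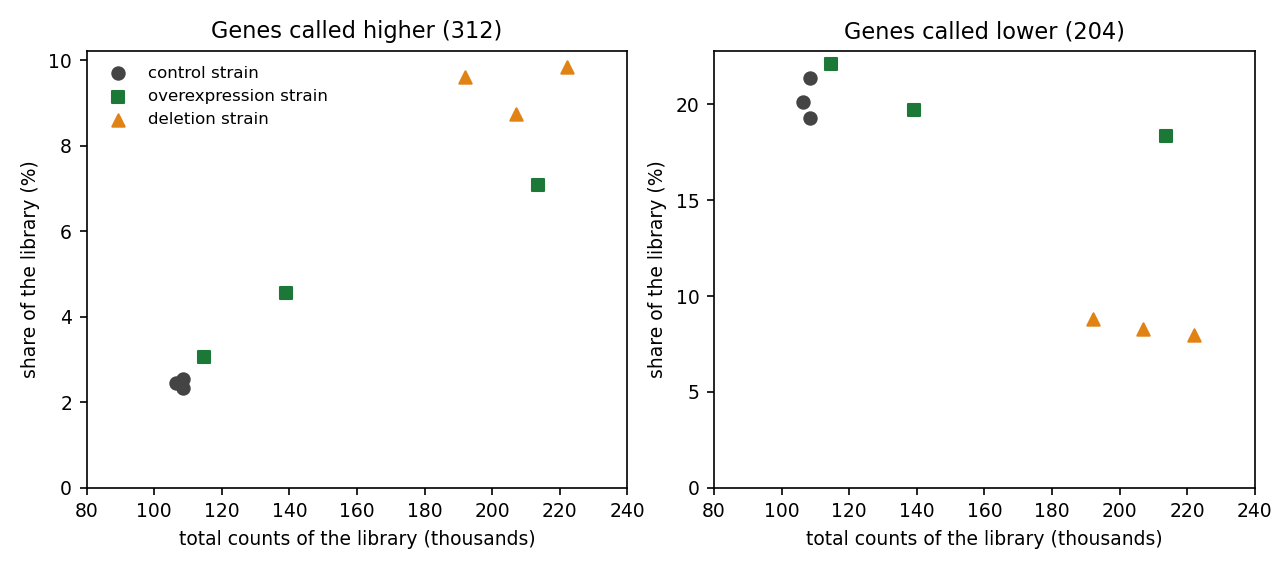
Share of each library taken by the 312 genes called higher (left) and the 204 called lower (right), in percent, against the total counts of the library in units of 1000, with 1 point per library. On the left the overexpression libraries climb from 3.07% to 7.10% with depth while the control libraries sit at 2.35% to 2.55%, and on the right the *Δcra1* libraries lie at 7.98% to 8.79%, apart from all 6 other libraries.

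Among the largest falls were genes of RNA splicing, DNA repair, nucleotide salvage and ion pumping. *PRP2* (PP7435_Chr3-0712), an RNA-dependent ATPase of the spliceosome, had 126, 123 and 178 counts in the control strain and 2, 4 and 5 in the *Δcra1* strain. Its level fell 77.1-fold (log2 fold change -6.27 ± 0.27 SE, adjusted p = 7.71e-20), the largest fall after *CRA1* among the genes named by rule. Next came PP7435_Chr4-0289, similar to a protein of unknown function, which went from 70, 70 and 76 counts to 1, 1 and 10, a 36.0-fold fall. *YKU70*, a subunit of the Ku complex that binds DNA ends and telomeres, went from 33, 25 and 22 counts to 2, 1 and 3. *REV1*, a translesion DNA polymerase, went from 370, 390 and 396 counts to 31, 34 and 43, a 22.1-fold fall (adjusted p = 1.27e-23). *URK1*, the uridine and cytidine kinase of pyrimidine salvage, went from 115, 144 and 135 counts to 12, 9 and 15, a 22.4-fold fall (adjusted p = 7.83e-19). In all of these the 2 strains were far apart and no library overlapped.

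*URK1* and *REV1* are numbered on either side of *CDC19*, the pyruvate kinase gene, and *ACS1* follows *REV1*. *CDC19* had 41, 35 and 40 counts in the control strain and 51, 40 and 62 in the *Δcra1* strain, with a log2 fold change of -0.66 ± 0.22 that missed the 2-fold cutoff. Both flanking genes thus held more counts than *CDC19* in the control strain and fell further. Over the whole set, 1022 pairs of tested sequences had consecutive numbers. Both members were called in 61 of these pairs, of which 42 moved the same way and 19 in opposite directions. These counts are to be read against 21.6% of all tested sequences being called and 60.5% of the calls being rises. By those shares alone a part of the pairs would be called together and move the same way. Whether such neighbours share reads was not tested.

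Other large falls were those of membrane and organelle proteins, and of the glycolytic phosphoglycerate mutase gene *GPM1*, which fell 10.4-fold from 18, 17 and 22 counts to 4, 0 and 7. *ENA2*, a P-type sodium pump at the cell surface, had 246, 252 and 284 counts in the control strain and 21, 44 and 27 in the *Δcra1* strain, and fell by 4.13 on the log2 scale (SE 0.17, adjusted p = 3.85e-20). *MGR3*, which hands substrates to a protease of the inner mitochondrial membrane, fell from 110, 117 and 91 counts to 10, 15 and 16. *HID1*, listed with cell wall biogenesis in the study's table, fell from 101, 96 and 93 counts to 18, 12 and 19. *UIP4*, a protein of the nuclear envelope and endoplasmic reticulum, fell from 589, 563 and 486 counts to 129, 117 and 111 and was the third most abundant sequence of the control strain. The genes named here and in the paragraph on *PRP2* were all called lower in the depth fit too.

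Among the largest rises were genes of RNA turnover, peroxide breakdown, acetate use and cell adhesion. *VTS1* (PP7435_Chr1-1486), which binds hairpins in mRNA and recruits deadenylases, had 2, 0 and 2 counts in the control strain and 292, 189 and 218 in the *Δcra1* strain. Its rise of 6.31 on the log2 scale (SE 0.35, adjusted p = 1.87e-16) rests on only 4 control counts. *RRP4*, a core subunit of the RNA exosome, went from 2, 1 and 1 counts to 146, 104 and 101. *FLO400*, a lectin-like flocculin, went from 3, 3 and 2 counts to 61, 79 and 116, a 14.9-fold rise. *MSC1*, of unknown function, had 2, 0 and 0 counts against 31, 37 and 49, which gave a ratio of 28.2 with a counting interval of 7.63 to 236. *GET3*, the ATPase that delivers tail-anchored proteins to the endoplasmic reticulum, had 0, 2 and 1 counts against 28, 32 and 31, a ratio of 14.6 with an interval of 4.85 to 72.2. The calls of *VTS1*, *FLO400* and *MSC1* held in the depth fit, while *RRP4* (adjusted p = 0.109) and *GET3* (0.345) lost theirs.

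Some rises were in genes without a name. PP7435_Chr1-1116, of low similarity to transthyretin-like proteins, rose from 9, 9 and 14 counts to 634, 550 and 610, a 26.8-fold change. PP7435_Chr1-1547, described as similar to a putative ABC transporter, rose from 21, 23 and 23 counts to 747, 577 and 755. Both were among the genes that gained the most CPM and both were called in the depth fit. In all, 227 of the 516 called genes carry no gene name in the study's table.

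**Figure D3:**
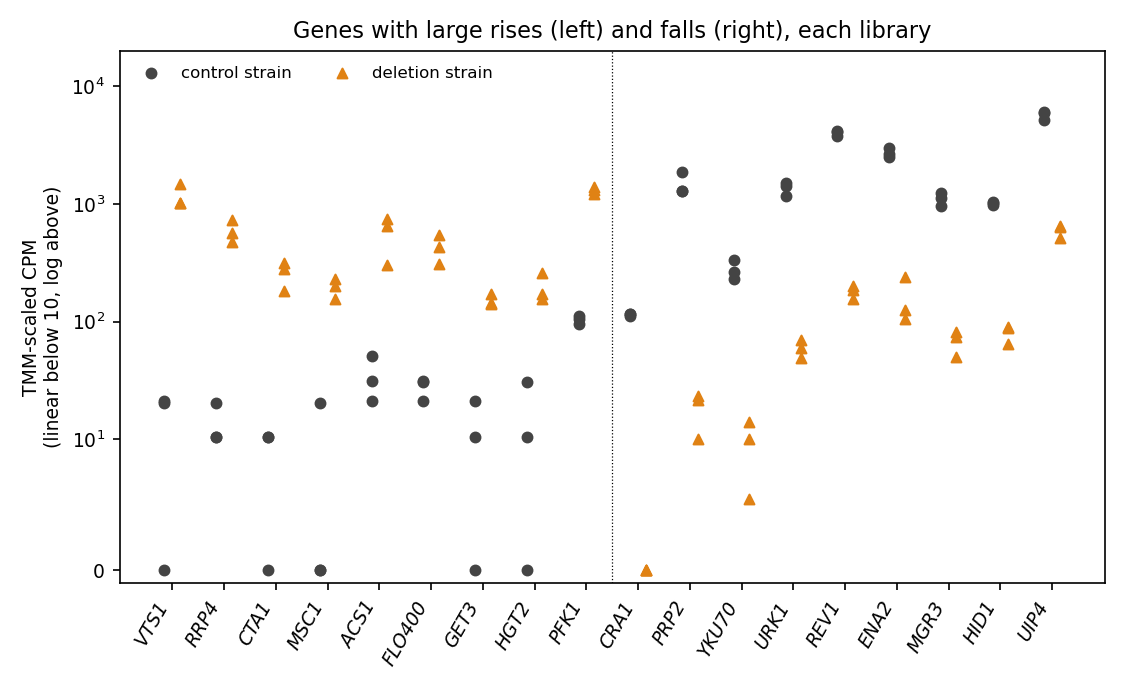
TMM-scaled CPM of 18 named genes in each library, linear below 10 and logarithmic above, with circles for the 3 control libraries and triangles for the 3 *Δcra1* libraries. In the 9 genes left of the dotted line all *Δcra1* libraries lie above all control libraries, and in the 9 on the right they lie below.

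Of the called genes 231 could be placed in 36 lists by function, which together name 421 genes. Names were available only for genes that the study had picked as changed in at least 1 of its comparisons. Called genes are therefore more frequent in most lists than in the whole set, and the counts below describe the lists without testing them. They are to be read against 13.1% called higher and 8.54% called lower of all sequences tested, and a median log2 fold change of 0.01.

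**Figure D4:**
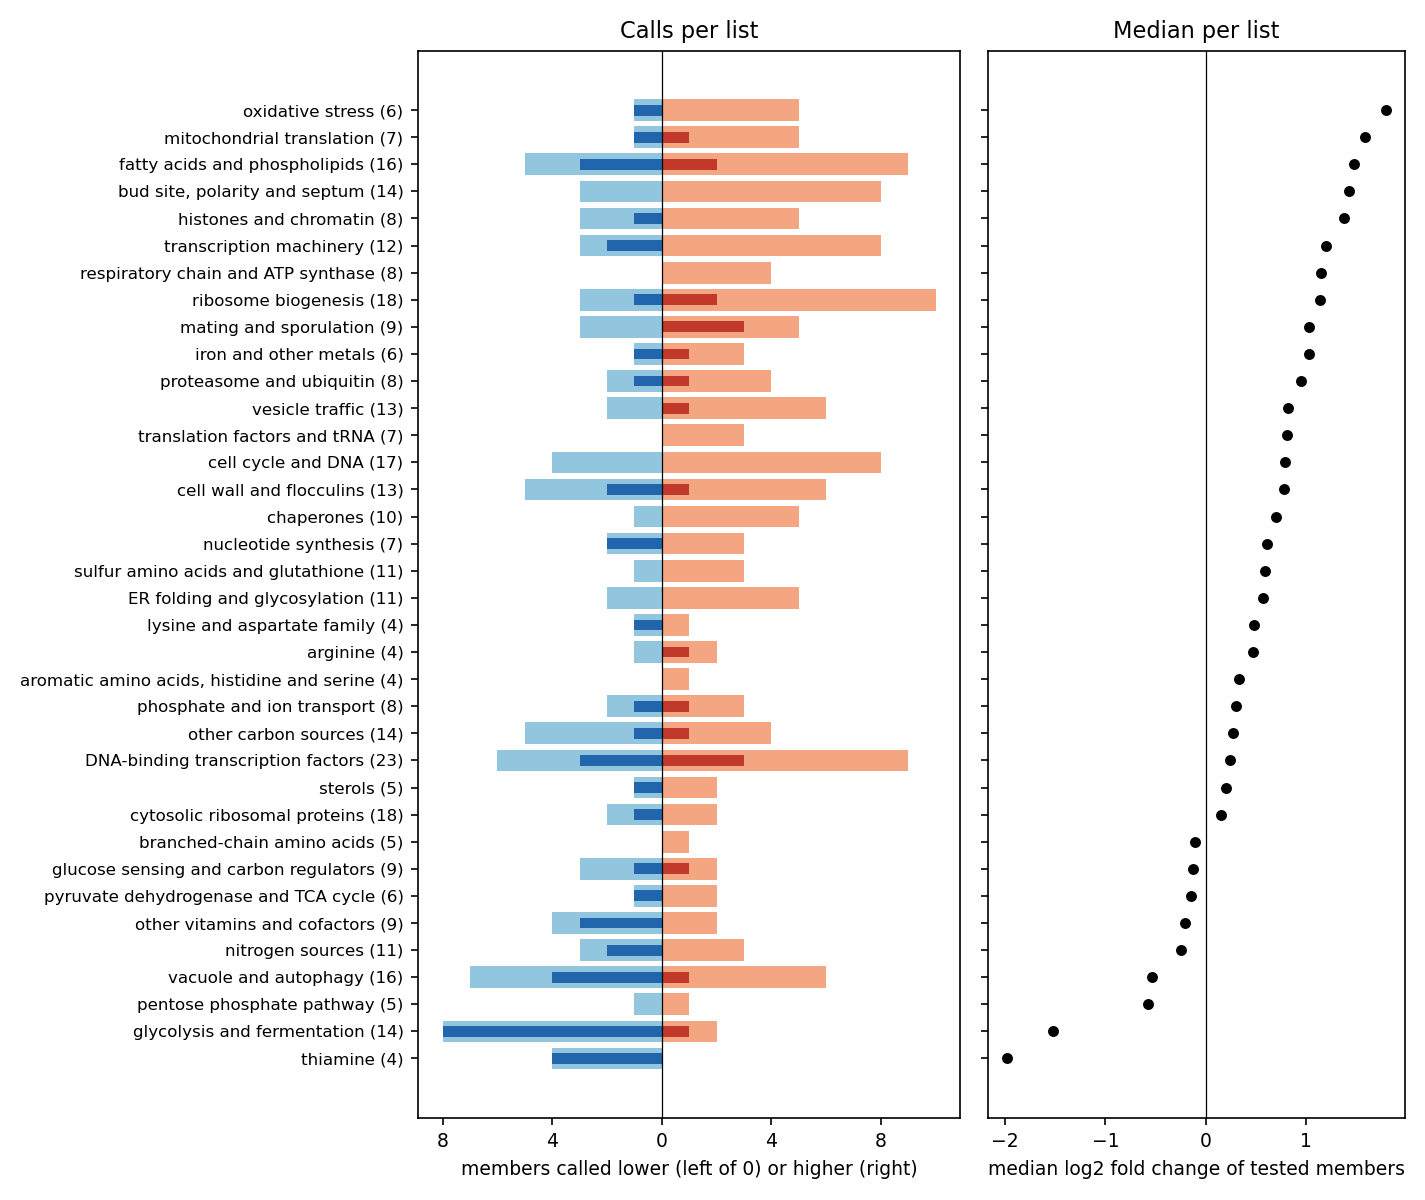
Calls per functional list (left; members called lower to the left of 0 and higher to the right, as counts) and the median log2 fold change of the tested members (right), ordered by that median, with the number tested in parentheses. Pale bars are the calls in the 6 libraries and dark bars the calls that held in the depth fit. That fit keeps all 8 falls of glycolysis and 4 of thiamine but none of the 8 rises in the lists of bud site and of cell cycle genes. It cannot tell depth from the amount of *CRA1*.

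Genes of acetate and acetyl-CoA metabolism moved in both directions. Acetyl-CoA synthetase turns acetate into acetyl-CoA, and its 2 isoform genes changed in opposite senses. *ACS1* went from 5, 2 and 3 counts in the control strain to 60, 137 and 140 in the *Δcra1* strain, a 15.9-fold rise (log2 fold change 3.99 ± 0.40 SE, adjusted p = 6.33e-10). *ACS2* went from 17, 14 and 10 counts to 0, 2 and 3, a 15.5-fold fall (log2 fold change -3.96 ± 0.54, adjusted p = 3.88e-07). Genes of the acetate transporter family Ady2 also split. *ADY2-2* rose 2.36-fold and *ADY2-3*, with 44, 39 and 44 counts against 37, 30 and 25, fell 2.85-fold. *ACH1*, a CoA transferase that handles acetate in mitochondria, rose 2.79-fold. In the depth fit the fall of *ACS2* and the rise of *ACH1* were called, the rise of *ACS1* had an adjusted p of 0.0709, and neither *ADY2-2* (0.631) nor *ADY2-3* (0.202) was called.

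Other carbon sources showed no common direction, with 4 rises and 5 falls among 14 tested genes of a list that includes those of acetate, of which the depth fit kept 1 rise and 1 fall. *GUT2*, the mitochondrial glycerol-3-phosphate dehydrogenase, went from 5, 3 and 4 counts to 21, 32 and 51 and rose 4.09-fold, a call that the depth fit did not keep. *DAK2*, a dihydroxyacetone kinase, went from 124, 124 and 133 counts to 102, 83 and 104 and fell 2.73-fold, with a log2 fold change of -0.90 in the depth fit, under the 2-fold cutoff. At the top of glycolysis the phosphofructokinase subunits parted, since *PFK1*, for the alpha subunit, went from 11, 10 and 9 counts to 276, 243 and 258 whereas *PFK2*, for the beta subunit, went from 11, 11 and 14 to 6, 9 and 13 (log2 fold change -1.40 ± 0.40). Both phosphofructokinase calls held in the depth fit.

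Among the regulators of carbon use, *HGT2*, a glucose sensor or high-affinity transporter, went from 3, 0 and 1 counts to 52, 29 and 37. *SOK2*, a nuclear regulator downstream of protein kinase A that restrains filamentous growth, fell 4.51-fold, from 43, 56 and 43 counts to 20, 20 and 25 (adjusted p = 1.33e-08). Both calls held in the depth fit.

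Genes of the mitochondrion moved in both directions. All 3 tested genes of the mitochondrial genome rose in counts. The libraries were made from poly(A)-enriched mRNA, and how much mitochondrial RNA that selection let through in each library was not measured. Their changes therefore cannot be told apart from a change in that carry-over. *COB*, which encodes cytochrome b, went from 32, 14 and 15 counts to 167, 319 and 346, a rise of 2.71 on the log2 scale (SE 0.25, adjusted p = 8.52e-11). *COX2* and *COX3*, for subunits of cytochrome c oxidase, rose 4.40-fold and 4.44-fold. Of 8 tested genes of the respiratory chain and ATP synthase 4 rose and none fell, with a median of 1.15, the fourth being *COQ1*, whose product makes the tail of ubiquinone. The share of the mitochondrial genome was 0.0301% to 0.0572% in the control libraries and 0.131%, 0.284% and 0.269% in the *Δcra1* libraries. None of these 4 rises was called in the depth fit, where *COX2* and *COX3* had negative fold changes. Leaving the mitochondrial sequences out of the fit gave 309 rises and 204 falls, so the other calls did not rest on them.

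Nuclear genes of mitochondrial translation rose in 5 of 7 tested cases and fell in 1, with a median of 1.59. *MRPL31*, a protein of the large mitochondrial ribosomal subunit, had 18, 18 and 23 counts in the control strain and 125, 111 and 133 in the *Δcra1* strain (adjusted p = 1.54e-07), whereas *MRPL10*, of the same subunit, fell. *MEF2*, a mitochondrial elongation factor, rose 3.72-fold. *HSP60*, the mitochondrial chaperonin, rose 3.82-fold, from 17, 15 and 13 counts to 119, 124 and 114, and *PIC2*, the mitochondrial phosphate carrier, rose 3.21-fold. In the list of pyruvate dehydrogenase and the tricarboxylic acid cycle 2 of 6 tested genes rose and 1 fell, with a median of -0.15. *LSC1* and *LSC2*, for both subunits of succinyl-CoA ligase, rose 3.68-fold and 3.97-fold, while *LAT1*, the acetyltransferase of pyruvate dehydrogenase, fell 2.43-fold. Of these genes *MRPL31*, *MRPL10*, *PIC2* and *LAT1* were called in the depth fit.

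In the genes against oxidants, 5 of 6 tested members rose and 1 fell, with the highest median of the 36 lists at 1.80. *CTA1*, catalase A of the peroxisome, had 0, 1 and 1 counts in the control strain and 36, 52 and 67 in the *Δcra1* strain, a ratio of 37.4 with a counting interval of 10.2 to 311. *CCP1-1* and *PRX1-2*, a cytochrome c peroxidase and a peroxiredoxin of mitochondria, rose 3.20-fold and 3.16-fold, and *PCD1*, which clears oxidized nucleotides, rose 8.52-fold. The member that fell was *RCK1*, a protein kinase of the oxidant response, from 34, 33 and 55 counts to 15, 16 and 20. The transcript of *HSP12*, a small membrane-protecting stress protein, rose 8.41-fold, from 3, 4 and 2 counts to 49, 38 and 75. In the depth fit only the fall of *RCK1* was called among these, and *CTA1* had an adjusted p of 0.0882.

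Lipid genes moved in both directions, 9 of 16 tested members of the list of fatty acids and phospholipids rising and 5 falling. Genes of fatty acid synthesis and elongation were among the rises. *OLE1-1*, the delta-9 desaturase, went from 9, 5 and 8 counts to 62, 95 and 75 (5.07-fold, adjusted p = 3.05e-07). *IFA38*, the ketoreductase of very long chain fatty acid elongation, went from 5, 12 and 5 counts to 106, 71 and 79 (5.56-fold). *FAS1* and *ACC1*, the fatty acid synthase beta subunit and acetyl-CoA carboxylase, rose by 1.48 and 1.47 on the log2 scale. *TGL3*, a lipase of lipid droplets, rose 3.24-fold.

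The falls included fatty acid breakdown and sphingolipid metabolism. *POX1*, the acyl-CoA oxidase that starts peroxisomal beta-oxidation, went from 91, 80 and 85 counts to 27, 26 and 21, a 7.12-fold fall (log2 fold change -2.83 ± 0.20, adjusted p = 2.02e-13). *LCB3*, a phosphatase of sphingoid long-chain bases, went from 62, 61 and 41 counts to 19, 10 and 20. *FAT1*, which activates very long chain fatty acids, fell 2.90-fold. In sterol synthesis *ERG2*, the C-8 isomerase, fell 5.72-fold, from 28, 29 and 27 counts to 11, 11 and 8, whereas *ERG27*, the 3-keto reductase, rose 2.38-fold, from 38, 49 and 43 counts to 215, 189 and 240. In the depth fit *POX1*, *LCB3*, *FAT1* and *ERG2* were still called lower and *IFA38* and *TGL3* higher, while *OLE1-1* (log2 fold change 0.20, adjusted p = 0.866) and *ERG27* (0.0537) lost their calls and *FAS1* and *ACC1* turned their sign. The list of fatty acids and phospholipids kept 2 of its 9 rises and 3 of its 5 falls.

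Metal and ion genes moved both ways, with 3 rises and 1 fall among 6 tested genes of iron and other metals and 3 rises and 2 falls among 8 of phosphate and ion transport. The depth fit kept 1 rise and 1 fall in each list. *ZRT3*, the zinc exporter of the vacuole, had 20, 23 and 24 counts in the control strain and 167, 175 and 196 in the *Δcra1* strain, a 3.86-fold rise (log2 fold change 1.95 ± 0.18, adjusted p = 1.29e-10). *FRE8*, similar to ferric and cupric reductases, fell 5.65-fold, from 52, 54 and 56 counts to 22, 18 and 19. *SMF1*, a divalent metal transporter, and *BOR1*, a boron efflux transporter, rose 3.93-fold and 4.17-fold. *PMA1*, the proton pump of the plasma membrane, rose 2.93-fold, from 54, 41 and 58 counts to 223, 325 and 384. The depth fit kept the calls of *ZRT3* and *FRE8*, lost those of *SMF1* (adjusted p = 0.109) and *BOR1* (0.0887), and gave *PMA1* a fold change of opposite sign.

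The vacuole was the list with the most falls after glycolysis, 7 of 16 tested members, beside 6 rises. *VTC1* and *VTC2*, subunits of the complex that makes polyphosphate, went from 14, 19 and 24 counts to 9, 5 and 8 and from 48, 76 and 85 to 24, 18 and 19. Their falls were 5.29-fold and 7.07-fold. *PMC1*, the calcium pump of the vacuole, fell 3.99-fold, from 221, 204 and 218 counts to 105, 121 and 107 (adjusted p = 4.82e-15). *ATG2*, needed for growth of the autophagosome membrane, fell 7.89-fold, from 56, 49 and 37 counts to 9, 8 and 20. All 4 of these falls held in the depth fit. Subunits of the vacuolar proton pump, *VMA2* and *STV1*, rose 3.12-fold and 3.83-fold, and of the 6 rises of this list only that of *VPS62*, a vacuolar sorting gene, was called in the depth fit.

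In the nitrogen and amino acid genes no list with more than 1 call moved one way. The lists of branched-chain amino acids and of aromatic amino acids, histidine and serine each had 1 rise and 0 falls. *ASP1*, the cytosolic asparaginase, fell 5.00-fold, from 81, 97 and 76 counts to 44, 29 and 32. *MEP1*, an ammonium permease, rose 5.28-fold, from 4, 5 and 6 counts to 52, 59 and 55, and *SSY5*, the protease of the amino acid sensor at the plasma membrane, went from 3, 0 and 3 counts to 47, 38 and 38. *LYS20*, homocitrate synthase at the start of lysine synthesis, fell by 1.39 on the log2 scale (SE 0.20), from 70, 72 and 51 counts to 43, 53 and 56. *CAR1-1*, an arginase, and *ARG5,6*, of arginine synthesis, both rose, 2.10-fold and 3.81-fold. The calls of *ASP1*, *LYS20* and *CAR1-1* held in the depth fit, and those of *MEP1*, *SSY5* and *ARG5,6* did not.

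Vitamin genes other than those of thiamine fell in 4 of 9 tested cases and rose in 2. *TPN1*, the plasma membrane transporter of pyridoxine, fell 5.12-fold, from 15, 10 and 13 counts to 5, 4 and 6, and *SNZ3*, of pyridoxine and thiamine precursor synthesis, fell 2.97-fold. *MCH5-1*, the riboflavin transporter, went from 58, 66 and 59 counts to 17, 29 and 29, a 5.03-fold fall (adjusted p = 6.24e-10). These 3 falls held in the depth fit. *DFR1*, the dihydrofolate reductase, fell 2.81-fold and was not called there. The 2 rises were those of *SNO1* and *VHT1*, by 1.15 and 1.36 on the log2 scale. Neither was called in the depth fit.

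Genes of the machinery for gene expression were mostly higher, but few of the rises were called in the depth fit. In ribosome biogenesis 10 of 18 tested members rose and 3 fell, and in the transcription machinery 8 of 12 rose and 3 fell. *SGD1*, of small subunit processing, had 12, 9 and 13 counts in the control strain and 101, 107 and 107 in the *Δcra1* strain, a 4.45-fold rise (adjusted p = 1.33e-08). *POP1*, a shared subunit of the ribonucleases P and MRP, rose 2.29-fold. These were the 2 rises of the ribosome biogenesis list that held in the depth fit. *RPO21* and *RPA190*, the largest subunits of RNA polymerases II and I, rose by 1.23 and 1.55 on the log2 scale and turned their sign there, and none of the 8 rises in the transcription list was kept. *TAF2* of the factor TFIID and *TFB2* of TFIIH went the other way, from 64, 67 and 76 counts to 30, 30 and 31 and from 82, 88 and 95 to 56, 46 and 49. Both falls were kept.

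The list of histones and chromatin had 5 rises and 3 falls among 8 tested, and its 4 histone genes, which do not include one for H2B, all rose. *HTA2*, for H2A, went from 10, 10 and 5 counts to 84, 179 and 219, a 9.20-fold change (log2 fold change 3.20 ± 0.32 SE, adjusted p = 6.88e-10), and *HHF1*, for H4, from 10, 4 and 4 to 36, 48 and 52. *HHO1*, for H1, had 0, 4 and 2 counts against 25, 33 and 46. *SWD1*, a subunit of the histone H3 methyltransferase complex, went from 26, 26 and 21 counts to 12, 10 and 10, a 4.67-fold fall that the depth fit did not keep. In *HTA2*, as in *COB*, *COX2*, *FAS1* and *PMA1*, the first *Δcra1* library was the lowest of the 3. Of the 312 genes called higher, this library was the lowest of its strain in 169, the second in 75 and the third in 68. Without it 316 genes were called higher and 206 lower. None of the 5 rises was called in the depth fit, in which *HTA2* had a log2 fold change of -0.26 (adjusted p = 0.861).

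Cytosolic ribosomal proteins had 2 rises and 2 falls among 18 tested and a median of 0.16. Those listed other than *RPS26B* took 0.342% to 0.444% of the control libraries and 0.37% to 0.588% of the *Δcra1* libraries. The depth fit, whose depth slope came mostly from the overexpression libraries, gave other values. There 11 of the 18 tested were called lower and none higher, against 188 lower and 97 higher of the 2390 sequences. Among the 11 was *RPL32*, of the large subunit, at -2.13 (0.27 in the 6 libraries). Whether these lower values come from depth or from the amount of *CRA1* in the overexpression strain was not tested. *RPL2B*, also of the large subunit, turned from a called rise of 1.10 on the log2 scale to a called log2 fold change of -1.83. *RPS26B*, a small subunit protein and the most abundant sequence of every library, had 8827, 10698 and 9071 counts in the control strain and 8874, 9459 and 9529 in the *Δcra1* strain. Scaled for depth it fell 2.12-fold (log2 fold change -1.09 ± 0.11, adjusted p = 6.11e-10), from 8.14% to 9.86% of the control libraries to 4.29% to 4.93% of the others. The log2 fold change was -0.63 in the depth fit, under the 2-fold cutoff.

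Genes of the cell surface and of cell division split in the same way. Of 13 tested genes of the cell wall 6 rose and 5 fell. *KRE5-2*, of beta-1,6-glucan synthesis, went from 34, 49 and 44 counts to 9, 13 and 14, and fell by 2.86 on the log2 scale (SE 0.29), a call that held in the depth fit. *SCW10*, a glucanase-like wall protein, rose 3.83-fold, and *CDA2*, a chitin deacetylase, fell 2.31-fold, from 321, 322 and 344 counts to 308, 267 and 312. Neither of these was kept, and of the whole wall list 1 rise and 2 falls were. In the list of bud site, polarity and septum 8 of 14 tested genes rose and 3 fell. *BUD14*, a regulator of formin and of bud growth, and *MYO1*, the type II myosin of the cytokinetic ring, rose 4.28-fold and 4.01-fold. All 8 rises of that list were positive in the depth fit, with a median of 1.67, yet none was called there.

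Mating and sporulation genes held 5 rises and 3 falls among 9 tested. *MATalpha2*, the alpha2 mating-type regulator, had 11, 11 and 9 counts in the control strain and 100, 88 and 94 in the *Δcra1* strain, a 4.36-fold rise (log2 fold change 2.13 ± 0.26, adjusted p = 3.70e-08). *NDT80*, the activator of middle sporulation genes, went from 37, 28 and 20 counts to 122, 108 and 172. The 2 genes named for the pheromone-regulated protein Prm10 parted, *PRM10-2* rising 4.94-fold, from 8, 5 and 6 counts to 70, 55 and 72, and *PRM10-1* falling by 1.69 on the log2 scale. The list kept 3 of its 5 rises in the depth fit, those of *NDT80*, *PRM10-2* and *SPS22*, a gene named for sporulation, while *MATalpha2* had an adjusted p of 0.0632.

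In protein quality control and traffic, 6 of 13 tested genes of vesicle traffic rose and 2 fell, and 4 of 8 genes of the proteasome and ubiquitin rose and 2 fell. *TRS85*, a subunit of a tethering complex used in autophagy and traffic, rose 3.71-fold, from 21, 15 and 17 counts to 126, 128 and 156, and was the only one of the 6 rises in traffic that held in the depth fit, which kept neither fall. *GEA2*, an exchange factor of the Golgi, had 3, 3 and 1 counts against 41, 47 and 45. In the proteasome, *RPN5* of the regulatory particle rose 2.53-fold, from 29, 25 and 19 counts to 130, 104 and 151, whereas *PRE8* of the core particle fell 5.96-fold, from 33, 38 and 22 counts to 5, 11 and 16. Both calls held in the depth fit.

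Transcription factors other than *CRA1* changed in 9 rises and 5 further falls among 23 tested. The largest of these changes was that of an unnamed gene of low similarity to a putative transcriptional regulator, from 8, 6 and 6 counts to 142, 121 and 124 (9.25-fold, adjusted p = 6.17e-12). PP7435_Chr3-0715, which carries a Gal4-type domain as *CRA1* does, fell 4.44-fold, from 214, 238 and 257 counts to 121, 105 and 105. The calls of both unnamed genes held in the depth fit, which kept 3 of the 9 rises and, with *CRA1*, 3 of the 6 falls. PP7435_Chr3-0715 is numbered next to PP7435_Chr3-0714, which fell by 3.21 on the log2 scale, and near *PRP2* (PP7435_Chr3-0712). Whether these neighbours share reads was not tested.

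**Figure D5:**
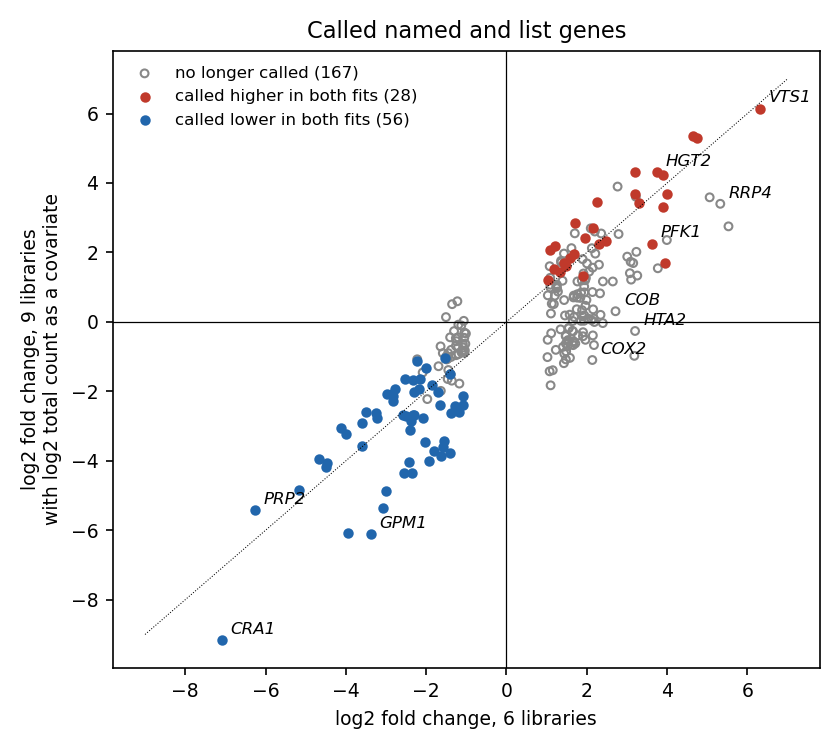
Fitted log2 fold change of the 251 called genes that are named or in a list (without *MTW1*, which had too few counts for the depth fit), in the 6 libraries (across) and in the depth fit of all 9 libraries (upwards), with the dotted line marking equal values. The 84 filled points are called in both fits, and the open points below the horizontal line on the right, such as *HTA2*, are rises that turned their sign.

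By position the calls were spread over the genome. The share of tested sequences called higher was 11.8% to 13.6% on each of the 4 nuclear chromosomes and the share called lower 7.64% to 9.61%, beside 13.1% and 8.54% over all.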

How the data were processed

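Poly(A)-enriched mRNA of shake flask cultures was sequenced from 3 *Δcra1*, 3 control and 3 *CRA1* overexpression cultures. Each culture was a separate flask of 1 transformant per strain. Submitters' processing notes list Trim Galore 0.4.2 and kallisto 0.44.0. The authors deposited estimated counts and TPM per transcript sequence, which kallisto spreads over matching sequences, so that near-identical genes share reads. Deposited counts scaled by DESeq2 factors were not used. Whether strand was used is not given in the sources used here.

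Estimated counts, of which under 1% were not whole, were rounded to whole numbers. The *Δcra1* and control libraries were compared with edgeR 4.0.16 in R 4.3.3, after its filterByExpr, with TMM factors and its quasi-likelihood test, adjusting p by Benjamini-Hochberg over 2390 sequences. Calls needed an adjusted p under 0.05 and at least a 2-fold change. The SE is the size of the log2 fold change divided by the square root of the F statistic. Depth was 106328 to 222125 counts, and a floor of 3 counts was 0.00135% to 0.00282% of a library. Intervals are at 95% and cover counting error only. The marker sequences took 0.760% to 0.848% of the *Δcra1* libraries and 0.00921% to 0.0141% of the control libraries.

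Gene names came from the study's gene table, which names 521 of its 714 identifiers, and no identifier matched the RefSeq table. The lists and the comparison were chosen with earlier results of these data known. *SNO1* and *VHT1* were named in the vitamin list after their values were seen. By the rule for named genes the text could name *CRA1* and eGFP, the 12 highest and 12 lowest changes with a mean of at least 20 counts and no overlap, the 6 genes that gained and the 6 that lost the most CPM, up to 4 called genes per list (in a list of at least 5 tested genes with no call, the 2 most abundant), genes the study names, and the 3 sequences on either side of *CRA1*. *ADY2-2*, *ACH1*, *DAK2*, *SGD1*, *POP1*, *RPO21*, *RPA190*, *TRS85*, *RPN5*, *VMA2*, *STV1*, *PMC1*, *VPS62*, *FAS1*, *ACC1*, *OLE1-1*, *FAT1*, *TGL3*, *CDA2*, *NDT80*, *SPS22*, *CCP1-1*, *PRX1-2*, *MRPL10*, *PFD1*, *RPL32* and PP7435_Chr3-0715 were chosen after their values were seen.

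Alternatives were RLE factors, library totals only, no filter, a mean of at least 30 counts, DESeq2 1.42.0 with and without length offsets, all 9 libraries, the replicate number as a block, limma 3.58.1 on log2 of the deposited TPM plus 1 or 0.1, other cutoffs, and each library left out. The fit without mitochondrial sequences and the depth fit were chosen after seeing the data. Only the main edgeR fit was run on simulated counts with known changes, and the alternatives and the depth fit were not. The overexpression and *Δcra1* strains share their control libraries, and groups of 3 were not tested for outlying libraries.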

Additional observations from a re-analysis of the deposited data

How the results depend on the processing

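The counts of 312 rises and 204 falls stayed within 1.5 times under RLE factors, DESeq2 with and without length offsets, no filter, an adjusted p under 0.01 and the fit without mitochondrial sequences. With a mean of at least 30 counts, which leaves 1268 sequences, 115 rose and 80 fell, with 65 rises and 38 falls in the lists, which had 142 and 89 before. In all 9 libraries without the covariate 180 rose. On log2 TPM limma gave 118 falls (55 in the lists) with a pseudocount of 1 and 116 falls with 0.1, where the lists had 90 rises and 53 falls; its median over all sequences was 0.55 and 0.59, beside 0.01 in the counts and 0.16 with library totals only. With no fold cutoff 475 rose and 461 fell. Leaving out 1 library gave 240 to 326 rises and 173 to 243 falls, with 121 to 158 and 80 to 95 in the lists. Deviations of same-numbered libraries from their strain means correlated at -0.185, -0.080 and -0.089. With 3 libraries per strain these values cannot show whether the replicate numbers pair the samples. With the number as a replicate block 301 rose and 201 fell, 140 and 90 of them in the lists.

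Of 369 tested genes that are named or in a list 251 were called. Over the 19 alternatives other than the depth fit 135 of these kept their call in every alternative in which they were tested. In 76 the call was lost in 1 to 3 alternatives and in 40 in more, and none turned its sign. An alternative in which a gene had too few counts was not counted as a loss, as for *CRA1* and eGFP with a mean of at least 30 counts. Without a fold cutoff no call could be lost. *LAT1* was not called without the first control library (log2 fold change -1.26, adjusted p = 0.0778), without the third (-1.17, 0.117), or without *Δcra1* library 2 (-1.13, 0.0696) or 3 (-0.97, 0.0942). *CAR1-1* lost its call without the first (0.73) or second control library (1.00), *SPS22* without the first (0.91) or second control library (0.94) or the first *Δcra1* library (0.97), *NDT80* without the third control library (0.92), and *RPL2B* without the first control library (0.99) or *Δcra1* library 3 (0.86). *RPS26B* was not called with library totals only, nor by limma. DESeq2 with and without length offsets did not call *LAT1*. Among the calls lost in all 9 libraries without the covariate were those of *COX2*, *LAT1*, *PFK2*, *RPO21*, *RPA190*, *VMA2*, *FAS1*, *ACC1*, *RPL2B* and *PDI1*.

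The depth fit called 100 rises and 196 falls, 27 of the rises in the lists. The log2 fold changes that turned their sign in it among called genes of energy metabolism and amino acids were -1.03 for *ZWF1*, -0.39 for *COX3*, -1.10 for *COX2*, -0.33 for *HXK1*, 0.51 for *ADH6*, -0.17 for *MET17*, -0.72 for *MUP1-1*, -0.52 for *LYS1*, -0.27 for *SHM1*, -0.62 for *DIP5-1* and -0.85 for *GLC7*. In gene expression, chromatin and DNA replication they were -0.98 for *URB2*, -0.0029 for *UTP18*, -0.41 for *SPT6*, -0.67 for *TRM82* and -0.91 for *TIF4632*. Further values there were -0.26 for *HTA2*, -1.83 for *RPL2B*, -1.01 for *RPP0*, -0.034 for *MCM3*, -0.67 for *NOP1* and -1.42 for *NSR1*. The rest there were -1.19 for *FPR3*, -0.70 for *ARB1-1*, -0.80 for *RPO21*, -0.55 for *RPB2* and -0.19 for *RPA190*. In the remaining lists they were -0.52 for *PSA1-2*, -0.52 for *PSA1-1*, -1.08 for *PDI1*, -0.56 for *RPT1*, -0.56 for *PMA1* and -0.26 for *VMA2*. They were also -0.30 for *CPS1*, -0.40 for *VPS70-1*, 0.59 for *GEF1-3*, -0.62 for *FAS1*, -0.41 for *ACC1* and 0.031 for *PSD2*. The others were -0.22 for *FKS1*, -0.39 for *GAS1-1*, 0.14 for *YHN8*, -0.59 for *PRX1-2* and -1.39 for *SNO1*. Genes with no call in the 6 libraries that turned their sign and were called lower were *LPD1* (-2.44), *ATP2* (-1.34), *MET3* (-1.85), *HIS4* (-2.21), *ADE12* (-1.58), *HSP82* (-2.05), *SSC1* (-1.92), *RPL24B* (-1.61), *RPL3* (-1.90), *RPL32* (-2.13) and *RPL15B* (-1.75). The cause was not tested.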

Other observations

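Chaperones, sulfur metabolism and DNA synthesis are not described above. Of 14 listed chaperones 10 were tested, of which 5 rose and 1 fell, *PFD1*, a subunit of prefoldin (2.07-fold). *SSA3*, an Hsp70 of the cytosol, had 1, 5 and 6 counts in the control strain and 27, 39 and 47 in the *Δcra1* strain (log2 fold change 2.16 ± 0.44 SE). *PDI1*, the disulfide isomerase of the endoplasmic reticulum, went from 13, 8 and 7 counts to 38, 54 and 71, while *SIL1*, the exchange factor of the Hsp70 there, fell 2.73-fold, from 29, 14 and 17 counts to 18, 17 and 10. *GLR1*, the glutathione reductase, had 24, 21 and 24 counts against 104, 100 and 127, a 2.30-fold rise, and *MET17*, of homocysteine synthesis, rose 2.94-fold. *MRI1*, of the methionine salvage pathway, fell 4.25-fold, from 30, 29 and 18 counts to 12, 16 and 9. *RNR1*, the large subunit of ribonucleotide reductase, had 8, 2 and 2 counts against 27, 44 and 40 (4.41-fold), and *CDC21*, the thymidylate synthase, rose 2.57-fold. None of these calls held in the depth fit, in which *PDI1* and *MET17* turned their sign.

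The median transcript length in the files was 1581 bases among the genes called higher and 1246.5 among those called lower, beside 1287 over all sequences tested.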
